A study of Mus musculus with 16 samples.

Results

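The 10 genes described here encode the calcium release channels of the endoplasmic reticulum (ER) and the proteins that hold the ER against the plasma membrane: the ryanodine receptors Ryr1, Ryr2 and Ryr3, the inositol trisphosphate (IP3) receptors Itpr1, Itpr2 and Itpr3, and the junctophilins Jph1, Jph2, Jph3 and Jph4. They were taken by symbol from a table of raw read counts for 55573 mouse gene identifiers, and 10 of 10 were found. The choice was made with their levels by group and their Harlequin values, paired by replicate number, already known. The members' levels and the differences between groups are therefore given in every comparison as a description, without a test.

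The table holds RNA sequencing of mouse cerebral cortex, harvested at around postnatal day 180 without any treatment, in 16 libraries of 4 groups of 4. Aifm1-KI mice carry the Aifm1 (R200 del) knock-in, and Aifm1-WT mice are their wild-type littermates. Hq-mut mice are Harlequin mutants of the stock B6CBACa Aw-J/A-Aifm1Hq/J, and Hq-WT mice are their wild-type littermates. Aifm1 encodes a mitochondrial flavoprotein with a part in assembling the respiratory chain, and the Harlequin allele is a proviral insertion that lowers its expression. The labels give the strain of all 4 groups as C57BL/6, and they name neither the sex nor whether each library is a separate animal. The p-values below therefore measure the spread between these libraries.

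Neurons keep a store of calcium in the ER. Ryanodine receptors open when cytosolic calcium rises, and IP3 receptors open when phospholipase C, switched on by surface receptors, makes IP3. Junctophilins span the narrow gap between the ER and the plasma membrane, so that surface calcium channels and release channels sit side by side. In textbook accounts Ryr1 and Jph1 belong to skeletal muscle, Ryr2 and Jph2 to heart, and Itpr1, Ryr2, Ryr3, Jph3 and Jph4 to brain.

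Library totals ran from 10671580 to 32551594 counts, so that a count of 0 would allow a level of up to 0.0876 to 0.277 CPM (counts scaled to the library total) by the limit of 3 counts. The 10 excitatory neuron markers were all detected in each group, with a summed level of 4501 to 6513 CPM. Skeletal muscle markers summed to 30.3 to 56.6 CPM, with 7 or 8 of 10 under 1 CPM in each group mean, and heart muscle markers to 8.55 to 16.8 CPM, with 6 of 8 under 1 CPM. The targeted gene, Aifm1, stood at 3.77, 2.22, 3.28 and 4.01 CPM in Hq-mut replicates 1 to 4 and at 23.1, 25.8, 23.5 and 23.4 CPM in Hq-WT. It fell by 2.87 on the log2 scale (SE 0.19, adjusted p = 0.000348, edgeR quasi-likelihood test). In Aifm1-KI its mean was 23.7 ± 1.84 CPM, against 22.7 ± 0.812 CPM in Aifm1-WT (SD, n = 4 each). In such bulk tissue, fewer cells of a type and less RNA per cell cannot be told apart.

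Promoter sequences of Ryr1 and Jph2 are shown because these are muscle-linked genes whose libraries did not overlap between mutant and wild type in 1 of the lines. RefSeq promoter sequences of GRCm38.p6 were matched for 7 of the 10 genes, all but Ryr3, Itpr1 and Jph1. Each stretch below is the 250 bases that end just before the listed transcription start, written 5′ to 3′ on the gene's own strand. Capitals mark the GC box (GGGCGG) and the CCAAT box (CCAAT), searched on both strands, so that the reverse complements CCGCCC and ATTGG are capitals too. The Ryr1 stretch lies at chr7:29125152-29125401, minus strand, and its last 28 bases fall inside the GENCODE M21 gene model. The Jph2 stretch lies at chr2:163397994-163398243, minus strand, and belongs to 1 of the 2 starts listed for that gene.
Ryr1: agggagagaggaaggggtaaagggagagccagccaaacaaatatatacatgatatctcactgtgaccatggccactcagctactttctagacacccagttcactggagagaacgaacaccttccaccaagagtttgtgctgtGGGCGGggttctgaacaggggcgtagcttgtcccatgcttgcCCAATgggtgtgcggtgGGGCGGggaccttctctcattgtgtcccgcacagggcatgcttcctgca
Jph2: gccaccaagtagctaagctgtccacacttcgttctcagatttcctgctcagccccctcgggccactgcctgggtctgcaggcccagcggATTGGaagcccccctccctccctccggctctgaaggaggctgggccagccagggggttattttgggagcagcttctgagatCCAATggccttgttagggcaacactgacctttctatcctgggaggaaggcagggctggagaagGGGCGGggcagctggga
The Ryr1 stretch holds 2 GC boxes, 1 CCAAT box and 6 CG dinucleotides. The Jph2 stretch holds 1 GC box, 2 CCAAT boxes and 5 CG dinucleotides. Of 32851 promoter stretches of that length, 32.7% hold a GC box and 33.8% a CCAAT box, and the median number of CG dinucleotides is 6. Neither stretch holds TATAAA, which 12.4% of all stretches hold, or the cAMP response element TGACGTCA, which 1.55% hold. These matches describe letters in the reference sequence and say nothing of binding.

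Per kilobase of exon, the brain junctophilins and Itpr1 had the most transcript of the 10 genes. Over 16 libraries the mean level was 58.2 CPM per kb for Jph3, 55.4 for Jph4, 45.2 for Itpr1 and 13.3 for Ryr2. The other members were lower, at 4.70 CPM per kb for Jph1, 3.11 for Ryr3, 1.95 for Itpr2, 1.15 for Ryr1, 0.605 for Itpr3 and 0.183 for Jph2. Jph3 and Jph4 overlapped in all 4 groups, so their order was not separated by the spread between libraries. In Aifm1-WT every other pair of neighbours in this order stood apart. In Hq-WT the ranges of Jph4 and Itpr1 overlapped, as did those of Ryr3 and Itpr2, Itpr2 and Ryr1, Ryr1 and Itpr3, and Itpr3 and Jph2. In Aifm1-KI the means of Jph4 and Ryr3 passed those of Jph3 and Jph1, with overlapping ranges. In Hq-mut the mean of Itpr1 lay between those of Jph3 and Jph4 and overlapped both, and the ranges of Ryr3 and Itpr2, Itpr2 and Ryr1, and Ryr1 and Itpr3 overlapped.

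**Figure D1:**
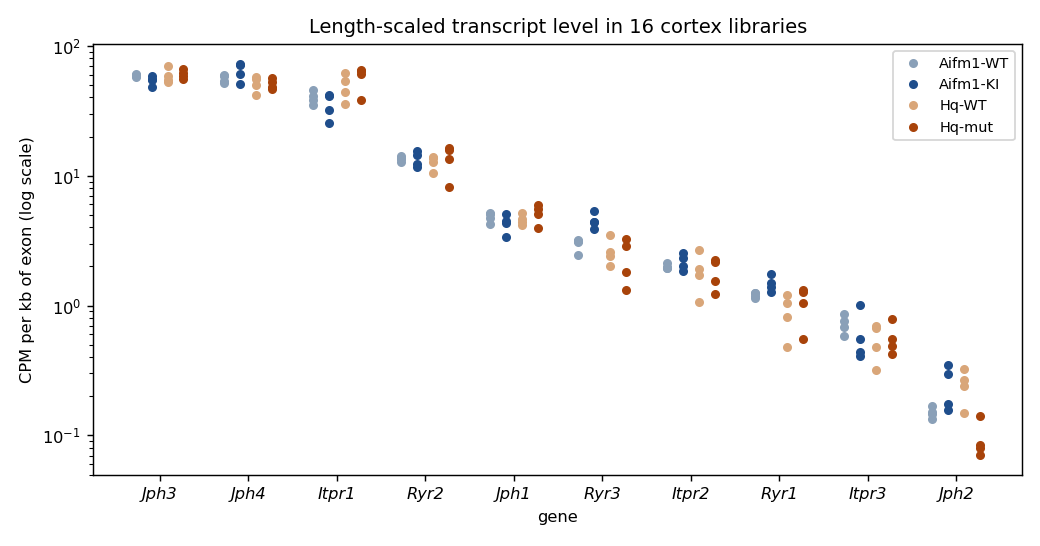
Level of each gene in CPM per kilobase of exon, on a log axis, with 1 point per library and the 4 groups side by side in the order Aifm1-WT, Aifm1-KI, Hq-WT and Hq-mut. Jph3, Jph4 and Itpr1 lie highest, Ryr2 next, and Jph2 lowest, with a mean of 0.183 CPM per kb.

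Each channel family was carried largely by 1 gene. Ryr2 made up 76.0% of the ryanodine receptor level per kb on average over 16 libraries, Ryr3 17.5% and Ryr1 6.50%. Itpr1 made up 94.3% of the IP3 receptor level per kb, Itpr2 4.35% and Itpr3 1.32%. The junctophilin level per kb was split between Jph3 at 49.2% and Jph4 at 46.6%, with 3.98% from Jph1 and 0.155% from Jph2. The Ryr3 share of the ryanodine receptor level was 23.3% ± 3.68 in Aifm1-KI, with a range of 19.7% to 27.6%, against 16.8% ± 1.84 and 14.3% to 18.7% in Aifm1-WT (SD, n = 4 each). In the Harlequin line the Ryr3 share was 13.7% ± 3.24 in Hq-mut and 16.3% ± 3.71 in Hq-WT (SD, n = 4 each).

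The ryanodine receptors are the largest members and lie on 3 chromosomes. Ryr1 (ENSMUSG00000030592) lies on chromosome 7 at 29003344 to 29125179, minus strand, in GRCm38, Ryr2 (ENSMUSG00000021313) on chromosome 13 at 11553102 to 12106945, minus strand, and Ryr3 (ENSMUSG00000057378) on chromosome 2 at 112631355 to 113217096, minus strand. Ryr1 ranged over 16 libraries from 10.4 to 38.1 CPM with a median of 26.7, Ryr2 from 236 to 470 with a median of 389, and Ryr3 from 24.9 to 102 with a median of 59.2. The strand setting of the read counting is not given in the sources used here. Ryr3 shares 916 exon bases with Aven, an inhibitor of cell death on the opposite strand, and Ryr1 shares 864 with the antisense gene Gm26604, whose group means were 0.278 to 0.394 CPM. Aven is named for this overlap, after its values were seen.

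The IP3 receptors include the main neuronal release channel, Itpr1, and 2 forms that are better known outside neurons. Itpr1 (ENSMUSG00000030102) lies on chromosome 6 at 108213096 to 108551109, plus strand, Itpr2 (ENSMUSG00000030287) on chromosome 6 at 146108299 to 146502223, minus strand, and Itpr3 (ENSMUSG00000042644) on chromosome 17 at 27057304 to 27122223, plus strand. Itpr1 ranged from 462 to 1203 CPM with a median of 760, Itpr2 from 15.7 to 39.5 with a median of 29.2, and Itpr3 from 2.88 to 9.14 with a median of 5.10. The antisense gene Itpr3os, which shares 233 exon bases with Itpr3, had a mean of 0.0111 CPM in Aifm1-WT and no counts in the other groups.

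The junctophilins span the range from the highest to the lowest level among the members. Jph1 (ENSMUSG00000042686) lies on chromosome 1 at 16964560 to 17097889, minus strand, Jph2 (ENSMUSG00000017817) on chromosome 2 at 163336242 to 163397993, minus strand, Jph3 (ENSMUSG00000025318) on chromosome 8 at 121729623 to 121794276, plus strand, and Jph4 (ENSMUSG00000022208) on chromosome 14 at 55106826 to 55116935, minus strand. Jph1 ranged from 16.7 to 29.4 CPM with a median of 23.2, Jph3 from 216 to 312 with a median of 258, and Jph4 from 294 to 515 with a median of 384. Jph2 ranged from 0.300 to 1.48 CPM with a median of 0.658, which is 7 to 43 counts in a library.

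**Figure D2:**
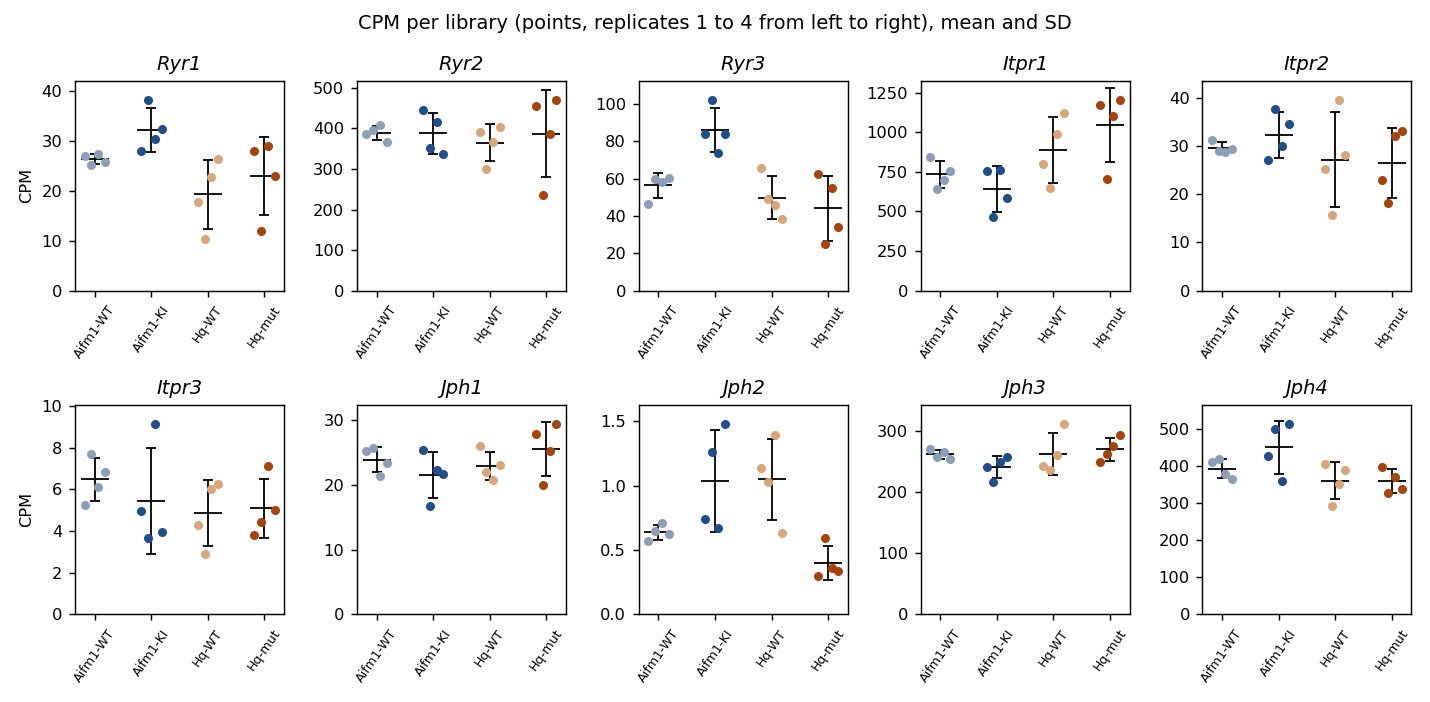
CPM of each gene (vertical axis, from 0) by group (horizontal axis), with 1 point per library, replicates 1 to 4 from left to right, and a bar for the mean with its SD. The Ryr3 panel shows all 4 Aifm1-KI libraries, 73.5 to 102 CPM, above all 12 others, and the Jph2 panel shows all 4 Hq-mut libraries, 0.300 to 0.596 CPM, below all 4 Hq-WT libraries.

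In the knock-in cortex, Ryr3 and Ryr1 had higher levels than in wild-type littermates in every library, while the 4 most abundant members, Itpr1, Jph3, Jph4 and Ryr2, overlapped. Over all genes, edgeR called 0 of 18383 (0%), with 2094 at an unadjusted p under 0.05, and DESeq2 called 82. The log2 fold change was above 0 for 6 members and below 0 for 4, with a median of 0.08 against 0.01 over all genes tested, of which 51.6% were above 0.

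Ryr3, the ryanodine receptor first described in brain, stood at 84.1, 102, 73.5 and 83.7 CPM in Aifm1-KI replicates 1 to 4. In Aifm1-WT it stood at 46.5, 60.0, 58.3 and 60.5 CPM. The lowest knock-in library lay above the highest wild-type library. The difference was 1.54-fold, a log2 fold change of 0.62 (SE 0.11) in edgeR. Aven, the overlapping gene, had 7.76 ± 1.32 CPM in Aifm1-KI and 8.26 ± 0.913 CPM in Aifm1-WT (SD, n = 4 each; log2 fold change -0.09, SE 0.14), and its groups overlapped.

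Ryr1, the release channel of skeletal muscle, stood at 27.9, 38.1, 30.3 and 32.3 CPM in Aifm1-KI and at 27.0, 25.2, 27.3 and 25.8 CPM in Aifm1-WT. The groups did not overlap, although Aifm1-KI replicate 1 lay just above the highest wild-type library. The log2 fold change was 0.31 (SE 0.09). Ryr1 and Ryr3 were the 2 of 10 members whose knock-in libraries all lay above the wild-type ones, where 2.03% of all genes did so, and no member's lay all below, where 2.83% of all genes did. Ryr2, the most abundant ryanodine receptor, stood at 446, 353, 415 and 337 CPM in Aifm1-KI and at 387, 396, 408 and 366 CPM in Aifm1-WT, with a log2 fold change of 0.01 (SE 0.09).

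Among the IP3 receptors, Itpr1 stood at 756, 462, 764 and 586 CPM in Aifm1-KI and at 841, 643, 696 and 756 CPM in Aifm1-WT. Aifm1-KI replicates 2 and 4 were the lowest of these 8 libraries, and the groups overlapped (log2 fold change -0.18, SE 0.16). Itpr2 had a log2 fold change of 0.14 (SE 0.10) and Itpr3 of -0.29 (SE 0.27).

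Among the junctophilins, Jph2 stood at 0.739, 1.26, 0.671 and 1.48 CPM in Aifm1-KI, from 14, 43, 8 and 34 counts, and at 0.570, 0.646, 0.710 and 0.623 CPM in Aifm1-WT. Aifm1-KI replicate 3 lay within the wild-type range and the other 3 above it (log2 fold change 0.77, SE 0.28). Jph4, a neuronal junctophilin, stood at 429, 500, 360 and 515 CPM in Aifm1-KI and at 412, 419, 378 and 365 CPM in Aifm1-WT, and its groups overlapped (log2 fold change 0.21, SE 0.11). Jph3 (-0.11, SE 0.06) and Jph1 (-0.15, SE 0.12) had log2 fold changes below 0.

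Markers of striatal projection neurons, cells of the region beneath the cortex, also differed between these groups. Their summed level was 341, 641, 265 and 591 CPM in Aifm1-KI replicates 1 to 4 and 231, 241, 227 and 277 CPM in Aifm1-WT. Aifm1-KI replicate 3 lay within the wild-type range. The mean was higher in Aifm1-KI for 10 of 10 markers, 2 of which did not overlap between the groups, and none was at 0. Choroid plexus markers reached 2879 CPM in Aifm1-KI replicate 2, against 32.6 to 49.5 CPM in the other knock-in libraries. Other lists differed too. The mean was higher in Aifm1-KI for 0 of 10 excitatory neuron markers (2 apart and lower), 0 of 10 oligodendrocyte and 0 of 10 microglia markers. It was higher for 6 of 6 oligodendrocyte precursor and 6 of 10 inhibitory neuron markers. For liver markers the mean was higher in 1 of 10, with 4 apart and lower. Oligodendrocyte markers summed to 2008 and 2931 CPM in Aifm1-KI replicates 2 and 4, against 3783 to 5175 CPM in Aifm1-WT. The part of these cells in the member values was not tested. Without Aifm1-KI replicates 2 and 4, the Ryr3 log2 fold change was 0.50 (SE 0.11), and with striatal markers as a covariate it was 0.38 (SE 0.13). Ryr1 had 0.16 (SE 0.07) and 0.11 (SE 0.12) in the same fits, and Jph2 0.17 (SE 0.32) and -0.10 (SE 0.40). Ryr2 had 0.16 (SE 0.07) and 0.23 (SE 0.10), against 0.01 in the main fit, and Jph3 -0.08 and -0.04. Jph4 had 0.02 and -0.11, Itpr1 0.06 and 0.22, Itpr2 -0.05 and -0.09, Itpr3 0.09 and 0.43, and Jph1 0.01 and 0.09, so these 5 genes and Jph2 had the opposite sign in 1 or both fits.

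**Figure D3:**
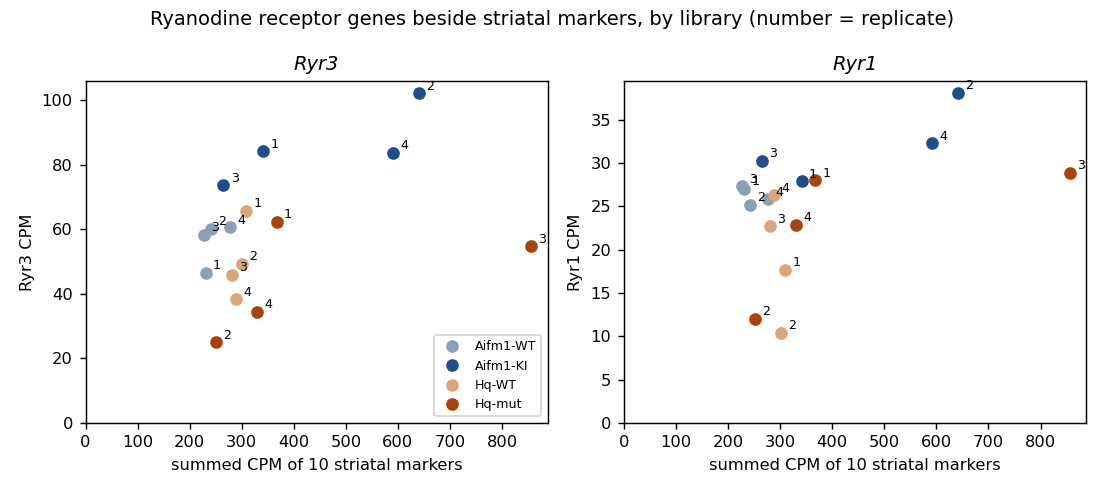
CPM of Ryr3 (left) and Ryr1 (right) against the summed CPM of 10 striatal markers, with 1 numbered point per library and colour for the group. Aifm1-KI replicates 2 and 4, at 641 and 591 CPM of striatal markers, have Ryr3 levels of 102 and 83.7 CPM. Their Ryr1 levels are 38.1 and 32.3 CPM. Aifm1-KI replicates 1 and 3, at 341 and 265 CPM of striatal markers, have Ryr3 levels of 84.1 and 73.5 CPM. Their Ryr1 levels are 27.9 and 30.3 CPM. Hq-mut replicate 3, at 856 CPM, has a Ryr3 level of 54.7 CPM.

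In the Harlequin cortex, Jph2, the junctophilin of heart muscle, was lower in every mutant library than in every wild-type library. Itpr1 was higher in the mutant of every replicate number, a pattern that 11.9% of all genes also had. These values chose the genes and carry no test. The replicate numbers pair Hq-mut with Hq-WT libraries, so each log2 fold change is given without and with the pairs. In edgeR 3 of 17969 tested genes (0.0167%) passed in this line, with the pairs as without.

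Jph2 stood at 0.300, 0.596, 0.360 and 0.338 CPM in Hq-mut replicates 1 to 4, from 7, 15, 8 and 8 counts. In Hq-WT it stood at 1.14, 1.03, 1.39 and 0.631 CPM, from 21, 20, 15 and 13 counts. The groups stood apart, with Hq-mut replicate 2 close to Hq-WT replicate 4. Jph2 was the 1 member of 10 whose mutant libraries all lay below the wild-type ones, where 0.723% of all genes did so. The log2 fold change was -1.37 (SE 0.34) without pairs and -1.37 (SE 0.32) with pairs, a level 2.58-fold lower in the mutant. Within replicate numbers 1 to 4 the log2 ratios were -1.65, -0.70, -1.70 and -0.75, lower in 4 of 4 pairs, where 6.88% of all genes were lower in 4 of 4. With striatal markers as a covariate the log2 fold change was -1.27.

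Marker lists of other contractile cells did not all go the same way as Jph2. Pericyte and smooth muscle markers summed to 103, 104, 121 and 136 CPM in Hq-mut replicates 1 to 4 and to 119, 111, 166 and 154 CPM in Hq-WT, lower in the mutant of each number. The mean was higher in Hq-mut for 2 of 8 of these markers, and none was at 0. Heart muscle markers summed to 8.65 to 15.2 CPM in Hq-mut and 8.55 to 16.8 CPM in Hq-WT, with a higher mean for 2 of 8 and 1 apart and lower. Myl7, the atrial myosin light chain, was at 0 in both groups and Nppb in Hq-WT. Skeletal muscle markers summed to 30.3 to 46.5 CPM in Hq-mut and 33.1 to 56.6 CPM in Hq-WT. Their mean was higher in Hq-mut for 6 of 10, with 1 apart and higher and 0 apart and lower. The part of these cells in the Jph2 value was not tested.

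Itpr1 stood at 1174, 704, 1101 and 1203 CPM in Hq-mut and at 801, 646, 987 and 1121 CPM in Hq-WT. The groups overlapped, and replicate 2 was the lowest library of each. The pairs had log2 ratios of 0.55, 0.12, 0.16 and 0.10, higher in 4 of 4, where 11.9% of all genes were higher in 4 of 4. The log2 fold change was 0.21 (SE 0.21) without pairs and 0.21 (SE 0.09) with pairs.

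The ryanodine receptors overlapped between Hq-mut and Hq-WT. Ryr3 stood at 62.2, 24.9, 54.7 and 34.3 CPM in Hq-mut and at 65.6, 49.2, 45.9 and 38.2 CPM in Hq-WT, with pair log2 ratios of -0.08, -0.98, 0.25 and -0.16. Its log2 fold change was -0.20 (SE 0.28) without pairs and -0.26 (SE 0.17) with pairs, and it was 0.01 without Hq-mut replicate 2 and -0.55 with striatal markers as a covariate. Ryr1 stood at 28.0, 12, 28.9 and 22.9 CPM in Hq-mut and at 17.7, 10.4, 22.7 and 26.3 CPM in Hq-WT. Its mutant was higher in 3 of 4 pairs, with a log2 fold change of 0.22 (SE 0.32) without pairs, 0.22 (SE 0.14) with pairs and 0.01 with the striatal covariate. Ryr2 stood at 456, 236, 386 and 470 CPM in Hq-mut and at 391, 299, 367 and 403 CPM in Hq-WT, with 0.06 (SE 0.21) and 0.02 (SE 0.10).

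The remaining members had small log2 fold changes in the Harlequin line. Without and with pairs these were 0.13 (SE 0.14) and 0.12 (SE 0.10) for Jph1, 0.02 (SE 0.12) and 0.02 (SE 0.07) for Jph3, and -0.03 (SE 0.13) and -0.02 (SE 0.08) for Jph4. For Itpr2 they were -0.06 (SE 0.28) and -0.03 (SE 0.11), and for Itpr3 0.04 (SE 0.29) and 0.05 (SE 0.18). Libraries with the same number resembled each other: replicate 2 was the lowest of both Harlequin groups for 5 of 10 members (Ryr1, Ryr2, Itpr1, Itpr2 and Jph4), where 18.2% of all genes had that pattern. Replicates 1, 3 and 4 were each the lowest of both groups for 0 members, where 8.87%, 11.3% and 7.62% of all genes had that pattern. Choroid plexus markers summed to 5500 CPM in Hq-WT replicate 2 and 381 CPM in Hq-mut replicate 2, against 6.42 to 130 CPM in the other 6 Harlequin libraries, and their part in these values was not tested. Striatal markers summed to 367, 251, 856 and 330 CPM in Hq-mut replicates 1 to 4 and to 309, 301, 281 and 289 CPM in Hq-WT, with a higher mean in Hq-mut for 10 of 10 and no marker apart. Oligodendrocyte markers summed to 2336, 5049, 5185 and 3550 CPM in Hq-mut and to 2538, 2084, 6298 and 3238 CPM in Hq-WT. Their mean was also higher in Hq-mut for 10 of 10, with no marker apart. Blood markers had a higher mean in Hq-mut for 0 of 6, with 1 apart and lower. The part of these cells in the member values was not tested.

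**Figure D4:**
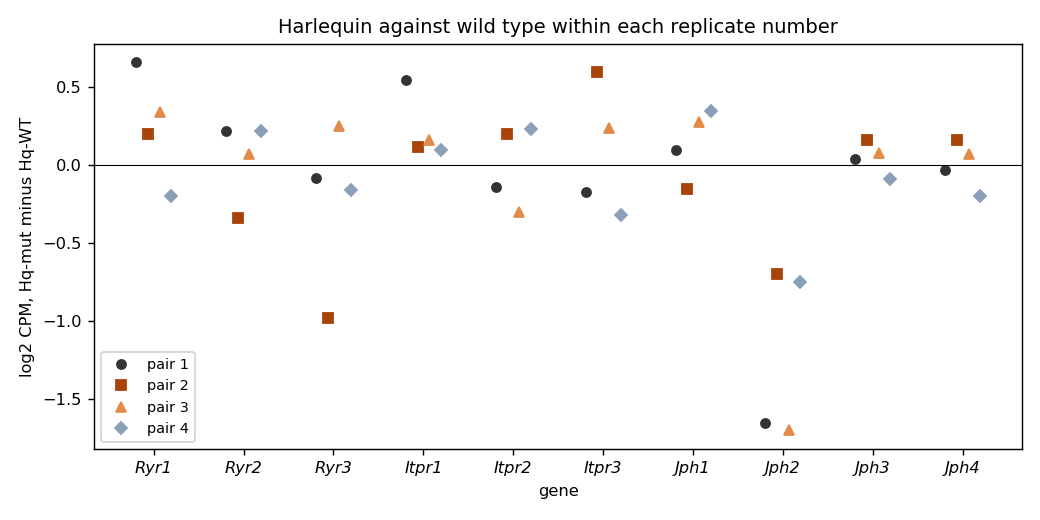
Log2 ratio of Hq-mut over Hq-WT CPM (vertical axis) for each gene, with 1 point for each replicate number from 1 to 4. All 4 Jph2 points lie below 0, between -1.70 and -0.70, a pattern of 6.88% of all genes. All 4 Itpr1 points lie above 0, between 0.10 and 0.55, a pattern of 11.9% of all genes.

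Between the wild-type groups of the 2 lines the channel and junctophilin genes overlapped. Over all genes edgeR called 101 of 18106 (0.558%). In no member did the groups stand apart, where 7.28% of all genes did. The log2 fold change of Hq-WT over Aifm1-WT was above 0 for 2 members and below 0 for 8, with a median of -0.11 against 0.0 over all genes, of which 51% were above 0.

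Jph2 had 1.05 ± 0.315 CPM in Hq-WT and 0.637 ± 0.0580 CPM in Aifm1-WT (SD, n = 4 each; log2 fold change 0.67, SE 0.28). Itpr1 had 889 ± 208 and 734 ± 84.8 CPM (SD, n = 4 each; log2 fold change 0.27, SE 0.16). Ryr1 had 19.3 ± 6.89 and 26.3 ± 0.988 CPM (SD, n = 4 each; log2 fold change -0.45, SE 0.22). The SD was larger in Hq-WT in these 3 genes. The log2 fold changes of the others lay between -0.43 for Itpr3 (SE 0.24) and 0.00 for Jph3 (SE 0.09). Marker lists differed as well. Liver markers summed to 296, 325, 52.8 and 345 CPM in Aifm1-WT replicates 1 to 4. In Hq-WT they summed to 8.32, 5361, 99.6 and 7.57 CPM. The liver list shares Ttr with the choroid plexus list. Of the 10 liver markers, 9 stood apart and lower in Hq-WT. So did 3 of 7 meninges and 3 of 10 microglia markers, while 2 of 10 inhibitory neuron markers stood apart and higher. Their part in the member values was not tested. The line, the stock and any batch of the lines cannot be told apart here.

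**Figure D5:**
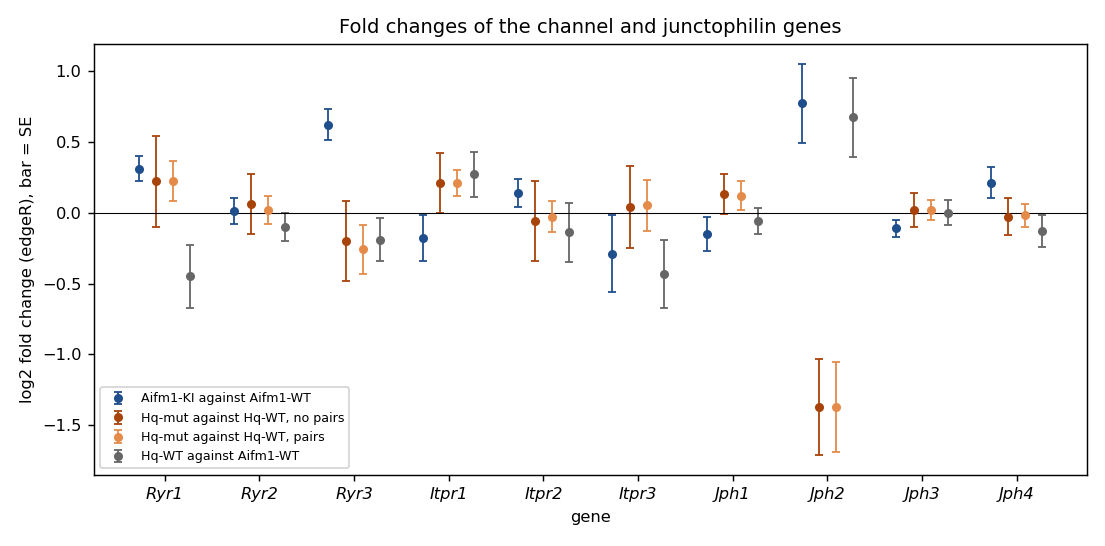
Log2 fold change of each gene in the knock-in, in Harlequin without and with replicate pairs, and between the wild types, with bars for the SE. The Jph2 value is 0.77 in the knock-in and -1.37 in Harlequin, and the Ryr3 value is 0.62 in the knock-in and -0.20 in Harlequin without pairs.

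The wild types of both lines enter more than 1 comparison: Aifm1-WT is shared by the knock-in comparison and the comparison of wild types, and Hq-WT by the latter and the Harlequin comparison. The mutants' effects themselves share no library. As a description, the Harlequin effect minus the knock-in effect was -2.12 on the log2 scale for Jph2 (SE 0.44), -0.81 for Ryr3 (SE 0.33) and 0.39 for Itpr1 (SE 0.29), and it lay between -0.24 and 0.32 for the others. Of all 19129 genes, 0.0105% passed the edgeR test of that difference.

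Genes that act on the same pathway were tested, since they were not members, and edgeR called none of them. Of 130 symbols in 6 lists, chosen by role, 129 were in the table. In the knock-in comparison 124 of them were tested and 0 were called by edgeR or DESeq2, and 22 (17.7%) had an unadjusted p under 0.05, where 11.4% of all genes did. In Harlequin 121 were tested, 0 were called by edgeR with or without pairs or by DESeq2, and 5 (4.13%) had an unadjusted p under 0.05, where 2.14% of all genes did. Between the wild types 123 were tested, 0 were called by edgeR, 17 (13.8%) had an unadjusted p under 0.05, where 12.7% of all genes did, and DESeq2 called 3, namely Homer1, Htr2a and Stac3, among 421 of 18106 genes.

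By list, the regulators that bind release channels had 9 of 27 genes with a log2 fold change above 0 in the knock-in, with a median of -0.04, and 12 of 26 in Harlequin, with a median of -0.01. Car8, which binds Itpr1 and lowers its affinity for IP3, had 11.5 ± 1.92 CPM in Aifm1-KI and 15.3 ± 1.29 CPM in Aifm1-WT, without overlap (SD, n = 4 each). Its log2 fold change was -0.38 (SE 0.12, adjusted p = 0.368, edgeR), and -0.70 with the striatal covariate. Fkbp1b, the subunit that steadies the closed ryanodine receptor, had 26.8 ± 7.91 CPM in Hq-mut and 18.5 ± 2.04 CPM in Hq-WT (SD, n = 4 each; log2 fold change 0.51, SE 0.19, adjusted p = 1.0, edgeR; 0.48, adjusted p = 0.523 with pairs). Homer1, a scaffold that links glutamate receptors to IP3 receptors, had 757 ± 120 CPM in Hq-WT and 497 ± 145 CPM in Aifm1-WT (SD, n = 4 each; log2 fold change 0.60, SE 0.18, adjusted p = 0.187, edgeR).

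The list for ER calcium refill and buffering had 13 of 16 genes above 0 in the knock-in (median 0.05) and 9 of 16 in Harlequin (median 0.02). Orai2, a pore of store-operated entry, had a log2 fold change of 0.32 in the knock-in (SE 0.17, adjusted p = 0.493, edgeR), which was 0.01 without Aifm1-KI replicates 2 and 4 and -0.16 with the striatal covariate. Between the wild types Hspa5, the main ER chaperone, had 0.49 (SE 0.15, adjusted p = 0.196, edgeR).

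The list for IP3 production, from surface receptors to phospholipases, had 14 of 25 genes above 0 in the knock-in and 17 of 25 in Harlequin, with medians of 0.02 and 0.05. Htr2c, a serotonin receptor that also marks choroid plexus, had 82.8 ± 52.6 CPM in Aifm1-KI and 20.3 ± 12.7 CPM in Aifm1-WT, with overlap (SD, n = 4 each; log2 fold change 2.05, SE 0.49, adjusted p = 0.368, edgeR). It was 1.23 without Aifm1-KI replicates 2 and 4 and 0.96 with the striatal covariate. Adra1b, an adrenergic receptor, had 36.9 ± 9.29 CPM in Hq-mut and 20.9 ± 6.84 CPM in Hq-WT (SD, n = 4 each; log2 fold change 0.79, SE 0.23, adjusted p = 1.0, edgeR; 0.81, adjusted p = 0.523 with pairs). Htr2a, a serotonin receptor of cortical pyramidal cells, had 42.5 ± 10.5 CPM in Hq-WT and 24.6 ± 4.49 CPM in Aifm1-WT, without overlap (SD, n = 4 each; log2 fold change 0.79, SE 0.17, adjusted p = 0.0764, edgeR).

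In the list for IP3 breakdown 6 of 14 genes lay above 0 in the knock-in and 5 of 14 in Harlequin. Inpp4b, a phosphatase of inositol lipids, had 14.2 ± 6.54 CPM in Aifm1-KI and 7.96 ± 1.16 CPM in Aifm1-WT, without overlap (SD, n = 4 each; log2 fold change 0.87, SE 0.27, adjusted p = 0.368, edgeR). Without Aifm1-KI replicates 2 and 4 its log2 fold change was 0.28, and with striatal markers as a covariate it was -0.05.

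The list for surface channels at ER junctions had 13 of 22 genes above 0 in the knock-in and 11 of 20 in Harlequin. Cacna1c, the L-type calcium channel pore, had 142 ± 22.0 CPM in Aifm1-KI and 110 ± 4.64 CPM in Aifm1-WT (SD, n = 4 each; log2 fold change 0.37, SE 0.10, adjusted p = 0.368, edgeR). It passed without Aifm1-KI replicate 3, at 0.46 (adjusted p = 0.0474, edgeR), while it was 0.21 without Aifm1-KI replicates 2 and 4 and 0.06 with the striatal covariate. Stac3, an adaptor of the muscle calcium channel, had 3.48 ± 0.956 CPM in Hq-WT and 6.64 ± 1.93 CPM in Aifm1-WT (SD, n = 4 each; log2 fold change -0.94, SE 0.27, adjusted p = 0.175, edgeR).

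The list of tethers between the ER and the plasma membrane or mitochondria had 11 of 20 genes above 0 in the knock-in and 12 of 20 in Harlequin. Esyt3, a tether of the extended synaptotagmin family, had 7.33 ± 3.93 CPM in Aifm1-KI and 3.58 ± 0.493 CPM in Aifm1-WT, without overlap (SD, n = 4 each; log2 fold change 1.07, SE 0.32, adjusted p = 0.368, edgeR). Its log2 fold change was 0.33 without Aifm1-KI replicates 2 and 4 and -0.06 with the striatal covariate. Mfn2, a mitofusin that also tethers mitochondria to the ER, had 203 ± 12.3 CPM in Hq-mut and 180 ± 14.2 CPM in Hq-WT (SD, n = 4 each; log2 fold change 0.14, SE 0.09, adjusted p = 1.0, edgeR; 0.15, adjusted p = 0.644 with pairs).

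Other genes with the smallest p of each list were not called. In the knock-in their log2 fold changes were -0.50 for Mrvi1 (SE 0.17), an IP3 receptor partner in smooth muscle, -0.08 for Sdf4 (SE 0.05) and -0.51 for the phospholipase Plcd3 (SE 0.13). They were 0.51 for the IP3 kinase Itpkb (SE 0.21), 0.42 for the calcium channel pore Cacna1e (SE 0.11) and -0.35 for Esyt1 (SE 0.15). Mrvi1 and Plcd3 were lower in the knock-in without overlap. Of all genes, 2.03% stood apart and higher in the knock-in and 2.83% apart and lower. Without Aifm1-KI replicates 2 and 4 the log2 fold changes were -0.36 for Mrvi1, -0.06 for Sdf4, -0.34 for Plcd3, 0.00 for Itpkb, 0.29 for Cacna1e and -0.18 for Esyt1. With the striatal covariate they were -0.27, -0.04, -0.17, -0.29, 0.15 and -0.07 in the same order, so that Itpkb had the opposite sign. In Harlequin they lay between -0.75 for Pln (SE 0.38), an inhibitor of the ER calcium pump, and 0.55 for the phospholipase Plch1 (SE 0.21). Also in between were Car8 (-0.39), Stac3 (-0.27), Itpkb (-0.16), Stim1 (0.11), Impa1 (0.13) and Cacnb2 (0.26). Between the wild types they lay between -0.70 for Mrvi1 (SE 0.26) and 0.36 for Plcl2 (SE 0.12), with Gramd1c at -0.50, Esyt1 at -0.45, the potassium channel Kcnb2 at -0.40, Inpp5k at -0.19, Inpp5a at 0.19 and Hsp90b1 at 0.26. Of these, Mrvi1, Gramd1c, Kcnb2 and Inpp5k were lower in Hq-WT without overlap, and Plcl2, Inpp5a and Hsp90b1 higher. Of all genes, 7.28% stood apart in either direction.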

How the data were processed

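Cortex RNA from 16 libraries was made into KAPA mRNA libraries and read as 51-base single ends, per the labels' protocols and the series' design text. The deposited values are raw counts per Ensembl gene, which the authors made with STAR 2.6 on mm10 and HTSeq, per the submitters' processing notes; the HTSeq version, annotation release and strand setting were not given in the sources used here. Of 55573 identifiers, 55480 were paired with GENCODE M21 (GRCm38) for names, coordinates and exon lengths.

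Samples were grouped by the genotype in the labels. Counts were fitted with edgeR 4.0.16 in R 4.3.3 (TMM factors, filterByExpr, glmQLFit and glmQLFTest), with Benjamini-Hochberg adjustment over all genes tested and calls at an adjusted p under 0.05. SE was taken from the F statistic (absolute log2 fold change over the root of F). CPM uses TMM factors over 16 libraries, and CPM per kb the summed exon length. Log2 CPM uses a prior count of 2. No p is printed for the 10 members, although tests of them were planned for the knock-in and wild-type comparisons, because their levels in all groups were known when they were chosen. The fit was tested on simulated counts. Alternatives were DESeq2 1.42.0, RLE factors, no filter on low counts, all 16 libraries in 1 fit, the replicate number as a block, the striatal marker level (mean log2 CPM of 10 markers) as a covariate, and libraries left out.

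The members, lists and alternatives were chosen with earlier results of these data known. Genes named are the 10 members, Aifm1, from each pathway list up to 4 called genes or else 2 with the smallest p in each comparison (not printed for the difference of effects, and 1 gene is not reported here), and for each member the 2 genes with the closest profile among those with a mean log2 CPM of at least 2.

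Harlequin libraries with the same replicate number deviated from their group means together: over 19129 genes the correlation was 0.358 to 0.494 for the 4 same-number pairs and -0.359 to 0.085 for the 12 others, so the numbers were taken as pairs. Libraries of 1 group differed by a chi-square of 3.48 to 95.7 per gene over 24 pairs, so none was a copy of another.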

Additional observations from a re-analysis of the deposited data

Results flagged for a closer look

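Ryr3 in Aifm1-WT replicate 1 was the lowest library of its group. It was at 46.5 CPM, where the nearest of the other 3 libraries was at 58.3 CPM, and that gap was 0.846 of the group's range. Dixon's critical value for 4 samples served only as a rule to flag values, since the levels chose the gene. This was the flag in 1 of 40 groups of member values, and chance gives about 1 in 20. Without that library the knock-in log2 fold change of Ryr3 was 0.53, against 0.62 with it.

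For Jph2 every Aifm1-KI library lay above the Aifm1-WT mean and every Hq-mut library below the Hq-WT mean, and the Harlequin effect minus the knock-in effect was -2.12 on the log2 scale (SE 0.44). The difference was not tested, since the Harlequin values chose the gene, and it rests on 7 to 43 counts per library. The knock-in log2 fold change of 0.77 was 0.17 (SE 0.32) without Aifm1-KI replicates 2 and 4 and -0.10 (SE 0.40) with striatal markers as a covariate. Both values were smaller than their SE.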

How the results depend on the processing

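Of 440 log2 fold changes of the members under alternatives, 7 moved by more than 1 SD between replicates, all in the knock-in comparison. That SD was pooled over all 4 groups, and for Ryr1 and Ryr3 it includes wider Harlequin libraries. Smaller knock-in moves were therefore not counted. With the striatal covariate Ryr3 went from 0.62 to 0.38 and Ryr1 from 0.31 to 0.11, where the SD of each in Aifm1-KI was 0.19. In the knock-in comparison edgeR called 0 genes, DESeq2 82 and the fit with the striatal covariate 1, and leaving out 1 library gave 0 to 46, with 46 without Aifm1-KI replicate 3. In Harlequin 3 genes were called, but 1 with the striatal covariate, 1 without the pair numbered 3, 1 without the pair numbered 2, and 1 to 2 without 1 library. Between the wild types 101 were called, 421 by DESeq2 and 560 with no filter on low counts. Leaving out 1 library gave 32 to 231: 37, 32 and 42 without Aifm1-WT replicates 1, 2 and 3, and 49, 169, 231 and 174 without Hq-WT replicates 1, 2, 3 and 4. For the difference of the mutants' effects 2 were called, 5 by DESeq2 and 1 to 2 without 1 library. The causes were not tested. With the replicate block the calls numbered 0 in the knock-in, 3 in Harlequin and 99 between the wild types, of which 68 were among the 101. Same-number libraries had correlations of -0.02 to 0.082 in the knock-in comparison and -0.081 to 0.113 between the wild types, so there they share only a number. Of 756 values of named pathway genes, 11 passed under an alternative, for 5 of 48 pairs of gene and comparison. Depth limits Jph2 most, at 7 to 43 counts.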

Other observations

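Each member was set beside 12437 or 12438 other genes by its profile over 16 libraries, as the root-mean-square difference of standardised log2 CPM, where 0 would be the same profile. The libraries share groups and depth, so this describes these libraries. Closest were Aak1 (0.28) and Arfgef3 (0.33) to Ryr2, and Eps15 (0.30) and Prkcb (0.35) to Itpr1. Camta2 (0.31) and Inf2 (0.39) were closest to Jph3, and Acot4 (0.33) and Ncam1 (0.35) to Jph4. Zc3hav1l (0.35) and Zbtb20 (0.41) were closest to Ryr1, and Zbtb20 (0.32) and Apbb1ip (0.35) to Itpr2. Rapgef6 (0.38) and Cadm1 (0.41) were closest to Ryr3, Adcy9 (0.37) and Gas7 (0.45) to Jph1, and Fbrsl1 (0.47) and Cit (0.48) to Itpr3. Jph2 had no close profile, at 0.59 to both Cep57 and Gkap1. Among the members themselves Ryr1 and Itpr2 were the most alike (0.62), followed by Ryr1 and Jph4 (0.73), while Itpr1 and Jph2 differed by 1.82.

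Over all genes the spread between libraries was wider in the Harlequin line. The SD of log2 CPM had a median of 0.28 in Hq-mut and 0.25 in Hq-WT, against 0.18 in Aifm1-KI and 0.13 in Aifm1-WT. Ryr1 had SDs of 0.59, 0.58, 0.19 and 0.05 in the same order of groups. Itpr3 had 0.38, 0.51, 0.59 and 0.23, Jph2 had 0.36, 0.44, 0.51 and 0.11, and Jph4 had 0.13, 0.21, 0.24 and 0.10, so these 3 members were widest in Aifm1-KI.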
